A study of Mus musculus with 32 samples.

Results

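The question was whether knockdown of Dnmt1 changed how far interferon gamma (IFN) moved each gene in cultured lung endothelial cells (ECs). The comparison used 16 of the 32 RNA-seq libraries, 4 in each of 4 groups: si-control, si-control + IFN, si-dnmt and si-dnmt + IFN. All came from Veravec mouse lung ECs, 1 line, transfected a first and a second time with a control siRNA or with siRNA against Dnmt1. IFN was given at 1000 U/mL for 16 h. The other 16 libraries had the same siRNAs with TNF at 10 ng/mL, alone or with IFN, and served as a separate set in which the same comparison could be made. The interaction was the log2 effect of IFN in si-dnmt cells minus its log2 effect in si-control cells, so that a value of −1 means that the fold induction was smaller by a factor of 2. It was tested in 15250 of the 54429 gene symbols in the count table, those that passed a filter on low counts.

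IFN binds a cell-surface receptor whose kinases, JAK1 and JAK2, phosphorylate STAT proteins. STAT dimers bind GAS elements, and the factors they induce, IRF1 among them, act with STAT complexes on interferon-stimulated response elements (ISREs) to switch on guanylate-binding proteins (GBPs), immunity-related GTPases (IRGs), antigen presentation and chemokines. DNMT1 copies DNA methylation onto newly made strands. Its loss lowers methylation over cell divisions, and can raise genes that methylation keeps low, endogenous retroviral sequences that feed interferon signalling among them.

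Fold induction by IFN was smaller in si-dnmt cells for a small group of IFN-induced genes, and no gene was called with a larger one. Of the 15250 genes, 7 were called lower (0.0459% of genes tested) and 0 higher by edgeR's quasi-likelihood test at a Benjamini-Hochberg adjusted p under 0.05. At an unadjusted p under 0.05 there were 246 lower and 158 higher. Together these 404 genes were fewer than the share of 0.05 of all genes tested that would pass if no gene differed. Among all genes tested the median interaction was 0.01 and 48.5% lay below 0. The 7 genes were Zbp1, Gm12250, Gbp8, Psmb9, Apol10b, Gbp2 and Ube2l6. All 7 rose with IFN under both siRNAs and all 7 were already higher in si-dnmt cells before IFN was added.

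The replicate numbers of the labels carried structure. Libraries with the same number deviated together across groups (r of 0.38 to 0.62 over 24 pairs of libraries, across genes, which are not independent replicates). Numbers 1 and 2 also deviated together, as did 3 and 4, and nearly as closely (r of 0.35 to 0.56 over 24 pairs). Libraries from different sets deviated in opposite directions (r of −0.59 to −0.37 over 48 pairs). Deviations from a group mean cancel within the group, so these opposite signs follow from the agreement within sets and are no further finding. Of the 16 libraries, 8 correlated best with their own number, so a pairing by number within a set was not established. With the replicate number as a block, 56 genes were called lower (0.367%) and 3 higher (0.0197%). The 56 included all 7 named above. Without the block 52 of the 56 had an unadjusted p under 0.05, in the same libraries and contrast, which is no separate evidence. The study calls the libraries biological replicates and does not say what separates the sets.

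Promoter sequence is shown first for 5 of these IFN-induced genes, because they hold the letters through which STAT and IRF proteins are known to act. Each line gives 100 bases before the annotated start site, 5′ to 3′ on the gene's strand, from RefSeq on GRCm38.p6. Capitals mark an ISRE core, GAAA followed after any 2 bases by a further GAAA, searched on both strands (so it can read TTTC, 2 bases, TTTC on the gene's strand), and TTCNNNGAA, a GAS element, which reads the same on both strands.
Gm12250 (chr11:58183743-58183842, + strand): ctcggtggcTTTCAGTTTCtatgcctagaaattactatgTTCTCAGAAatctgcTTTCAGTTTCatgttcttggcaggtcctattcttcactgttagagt
Gbp2 (chr3:142620563-142620662, + strand): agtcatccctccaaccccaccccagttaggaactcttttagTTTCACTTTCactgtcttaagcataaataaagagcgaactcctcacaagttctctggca
Gbp5 (chr3:142496834-142496933, + strand): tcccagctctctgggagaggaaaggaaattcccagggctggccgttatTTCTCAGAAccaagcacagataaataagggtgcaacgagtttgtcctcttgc
Igtp (chr11:58199456-58199555, + strand): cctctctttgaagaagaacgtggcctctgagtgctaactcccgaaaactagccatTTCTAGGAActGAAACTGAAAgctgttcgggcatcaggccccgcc
B2m (chr2:122147507-122147606, + strand): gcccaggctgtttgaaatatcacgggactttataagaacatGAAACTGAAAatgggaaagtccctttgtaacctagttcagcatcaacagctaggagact

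These 5 stretches hold 1 to 4 CpG sites each, and the B2m stretch ends 81 bases before the start, where the others reach it. Over 250 bases before the start, 37 of the 56 genes had a promoter entry, and 11 of these held the ISRE core (29.7%) against 3.43% of the 10527 tested genes with an entry. TTCNNNGAA was held by 8 (21.6%) against 7.31%. Of the 731 genes outside the 56 that IFN raised in TNF-treated cells (called, mean log2 of at least 1 over both siRNAs), 493 had an entry, of which 11.8% held the ISRE core and 11.4% TTCNNNGAA. At least 1 of the 2 motifs was held by 13 of the 37 genes (35.1%), 21.7% of the 493 and 10.3% of the 10527. Most of the 37 therefore held neither. The 2 motifs do not overlap in the stretches shown. The median number of CpG sites in the window was 8 for the 56 genes, 8 for the IFN-raised genes outside them and 17 for all genes tested. Among the 7 genes, Apol10b, Psmb9 and Ube2l6 had an entry with neither run of letters in the window. A match is a run of letters, not a measured binding site, and methylation was not measured in these libraries.

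Dnmt1 itself had no called interaction. It lay at 89.1 to 153 CPM (counts scaled to library size with TMM factors) in si-control, 86.5 to 176 CPM in si-control + IFN, 6.45 to 12.4 CPM in si-dnmt and 5.11 to 11.7 CPM in si-dnmt + IFN. The knockdown was seen in every library, and its interaction with IFN was −0.19 ± 0.48 (SE, 95% interval −1.19 to 0.80, adjusted p = 1.00). The residual level in both si-dnmt groups was higher in replicates 1 and 2 than in replicates 3 and 4. In si-control it was lower in replicates 1 and 2 (90.1 and 89.1 CPM) than in 3 and 4 (153 and 148 CPM). The same held in si-control + IFN. The fold knockdown was therefore weaker in replicates 1 and 2, and its part in the interaction was not tested.

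Zbp1 (ENSMUSG00000027514), a sensor of Z-form nucleic acid that can trigger necroptosis, had the largest interaction of the 7. Its levels were 3.43, 2.76, 3.87 and 2.06 CPM with si-control and 35.1, 38.2, 10.5 and 13.0 CPM with si-dnmt, in the order of the replicate numbers. With IFN they were 306, 351, 225 and 245 CPM with si-control and 341, 330.3, 242 and 262 CPM with si-dnmt. The siRNAs did not overlap before IFN, and with it the si-dnmt libraries lay within the range of si-control. Fitted induction was 92.8-fold in si-control and 12.2-fold in si-dnmt, an interaction of −2.93 ± 0.41 (SE, n = 4 per group, adjusted p = 0.000597, edgeR). The difference came with a resting level 7.94-fold higher in si-dnmt and a level under IFN only 1.04-fold higher.

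Gm12250 (ENSMUSG00000082292), an IRG known as Irgb10 that attacks pathogen membranes, had the same shape. It measured 0.282, 0.424, 1.71 and 1.52 CPM with si-control and 7.57, 8.38, 5.05 and 5.80 CPM with si-dnmt. IFN took it to 551, 583, 395 and 366 CPM with si-control and 508, 546, 334 and 358 CPM with si-dnmt. The resting groups did not overlap and the groups with IFN did. Induction was 467-fold against 65.3-fold (interaction −2.84 ± 0.45, adjusted p = 0.00291), although the smallest resting library held 6 counts.

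Apol10b (ENSMUSG00000050014), a member of the apolipoprotein L family, was the gene with the smallest p. It lay at 1.22, 1.11, 2.51 and 2.11 CPM with si-control and at 6.54, 7.10, 8.77 and 8.10 CPM with si-dnmt, and with IFN at 161, 173, 133 and 132 CPM and at 168, 191, 188 and 176 CPM. Its interaction was −1.85 ± 0.22 (adjusted p = 4.62e-05), from 85.1-fold and 23.6-fold induction. On the linear scale, by contrast, IFN added more Apol10b in si-dnmt (173 CPM) than in si-control (148 CPM), so the sign of the interaction holds for fold induction and not for the amount of RNA gained.

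Psmb9 (ENSMUSG00000096727), a catalytic subunit of the immunoproteasome, combined a raised resting level with a lower mean level under IFN. Resting values were 2.72, 2.12, 4.31 and 3.72 CPM with si-control and 11.4, 10.4, 6.31 and 8.62 CPM with si-dnmt. With IFN they were 152, 162, 139 and 172 CPM against 119, 137, 106 and 125 CPM. Each resting si-dnmt library lay above each si-control library, and each si-dnmt + IFN library below each si-control + IFN library. Induction was 48.2-fold and 13.3-fold (interaction −1.86 ± 0.26, adjusted p = 0.000664). The level under IFN, 0.780 times that of si-control, was itself not called (log2 −0.36 ± 0.17, adjusted p = 0.152).

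The 2 GBPs, GTPases that attack pathogen vacuoles, showed a called fall under IFN as well. Gbp2 (ENSMUSG00000028270) was at 76.3, 82.2, 78.7 and 82.6 CPM with si-control and at 167, 157, 87.4 and 99.8 CPM with si-dnmt. With IFN it reached 7601, 9242, 5885 and 5951 CPM with si-control but 4452, 4984, 3453 and 3682 CPM with si-dnmt. The groups were apart in opposite directions before and after IFN. Si-dnmt was 1.60-fold higher at rest and its level under IFN was 0.578 times that of si-control (log2 −0.79 ± 0.19, adjusted p = 0.00425). The interaction was −1.47 ± 0.28 (adjusted p = 0.035).

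Gbp8 (ENSMUSG00000034438) had 0.61, 0.424, 0.879 and 1.21 CPM with si-control, 2.05, 1.5, 1.60 and 1.63 CPM with si-dnmt, and with IFN 201, 200.4, 177 and 176 CPM against 119, 135, 87.1 and 98.6 CPM. Its interaction was −1.86 ± 0.36 (adjusted p = 0.0394), and its level with IFN fell by 0.78 on the log2 scale with si-dnmt (± 0.20, adjusted p = 0.00567). Reads of Gbp2, Gbp8, Apol10b and predicted genes with Gm names can be shared with close paralogs. Ube2l6 (ENSMUSG00000027078), the conjugating enzyme for ISG15, changed least: 64.4 ± 12.7 CPM (SD, n = 4) in si-control, 243 ± 15.6 with IFN, 123 ± 19.8 in si-dnmt and 271 ± 11.5 with IFN. Its interaction was −0.76 ± 0.15 (adjusted p = 0.0493).

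**Figure D1:**
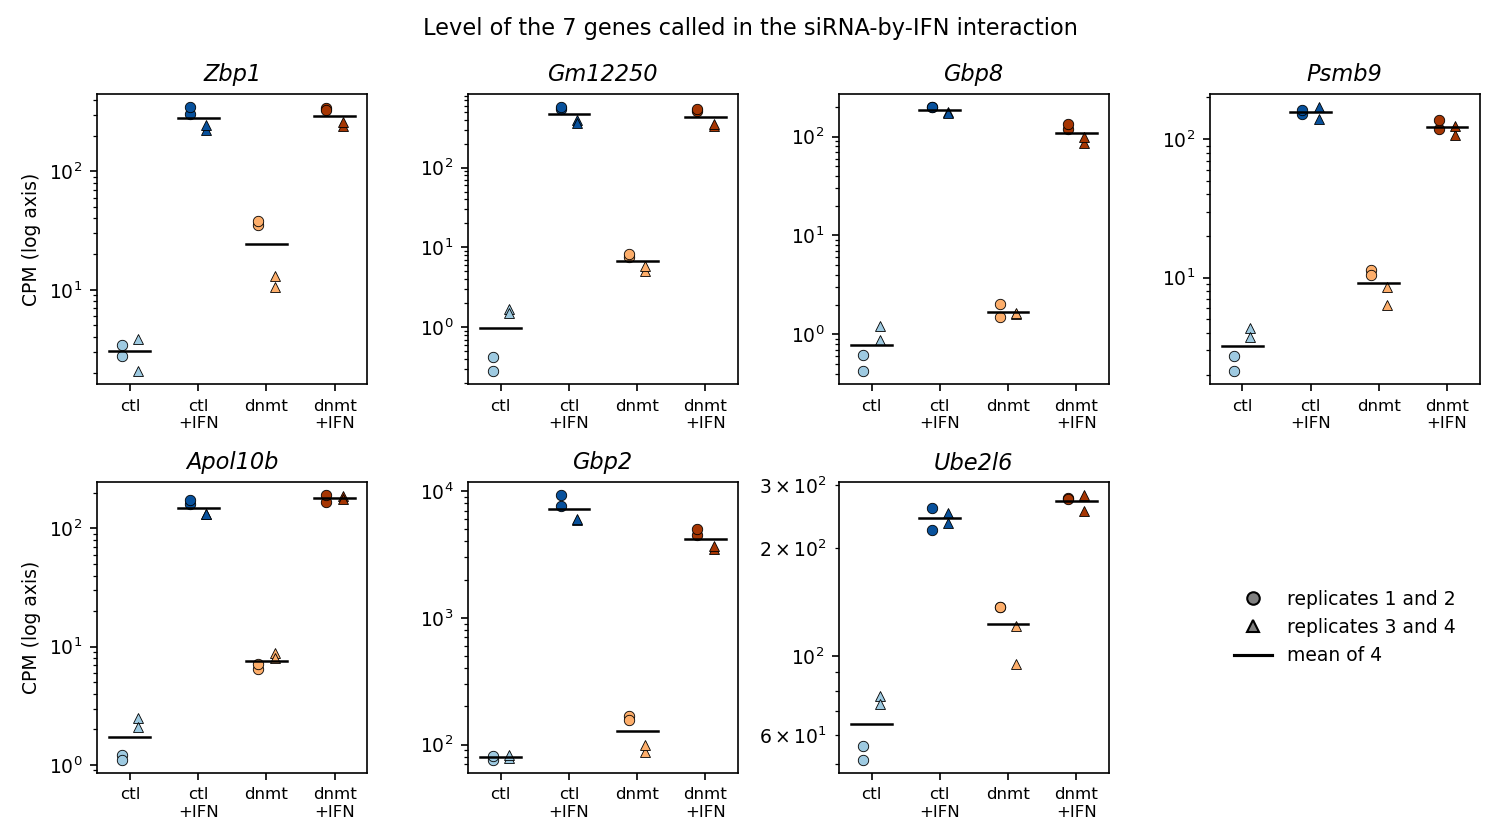
Levels of Zbp1, Gm12250, Gbp8, Psmb9, Apol10b, Gbp2 and Ube2l6 in CPM (log axis, which differs between panels) in the 4 groups; ctl is si-control and dnmt is si-dnmt. Points are single libraries, circles for replicates 1 and 2 and triangles for replicates 3 and 4, and bars are means of 4. The resting si-dnmt libraries lie above the resting si-control libraries in all 7 panels, while with IFN the si-dnmt libraries lie below those of si-control for Gbp2, Gbp8 and Psmb9.

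The calls rested on different numbers of alternatives. Apol10b and Psmb9 were called in all 28 alternative settings (adjusted p from 6.68e-16 to 0.029 and from 1.82e-09 to 0.029). Zbp1 was called in 27 (8.9e-11 to 0.0711) and Gm12250 in 26 (2.32e-09 to 0.0711). Gbp2 and Gbp8 were called in 17 each (1.6e-06 to 0.218 and 0.000105 to 0.44), and Ube2l6 in 12 (5.15e-06 to 0.476). The direction of all 7 was the same in each of the 28 settings. Leaving out 1 library at a time took the count of genes called lower to between 4 and 15: it was 4 without replicate 1 or 2 of si-control, without replicate 1 of si-control + IFN, without replicate 1 or 2 of si-dnmt, or without replicate 1, 3 or 4 of si-dnmt + IFN, and it was 12 without replicate 3 or 4 of si-control, 13 without replicate 3 of si-control + IFN and 15 without replicate 3 of si-dnmt.

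The 56 genes called lower with the block extended the same group. IFN raised 54 of them in si-control cells (called higher; 8.57% of all genes tested), the exceptions being Afap1l2 and Col11a1. It raised 51 in si-dnmt cells (6.66% of all genes). Before IFN, 55 of 56 were higher in si-dnmt than in si-control, and 43 were called higher there (9.57% of all genes), or 49 with the block (16.6%); Fbxl5 was the exception below. Under IFN 44 were not called between the siRNAs, 9 were called lower (9.54% of all genes) and 3, Epsti1, Sp100 and Parp11, were called higher (10.8%). With the block, the fit that chose the 56, 31 were not called under IFN, 16 were called lower (16.6%) and 9 higher (17.9%). These effects share libraries with the interaction, and a raised resting level enters it with a minus sign, so the counts describe its make-up and are no separate evidence. The 9 lower under IFN without the block were Gbp2, Gbp8, Gbp6, Igtp, Samhd1, Wars, Gm43302, Fbxl5 and Afap1l2. In CPM the gain with IFN was smaller in si-dnmt for 43 genes and larger for 13.

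**Figure D2:**
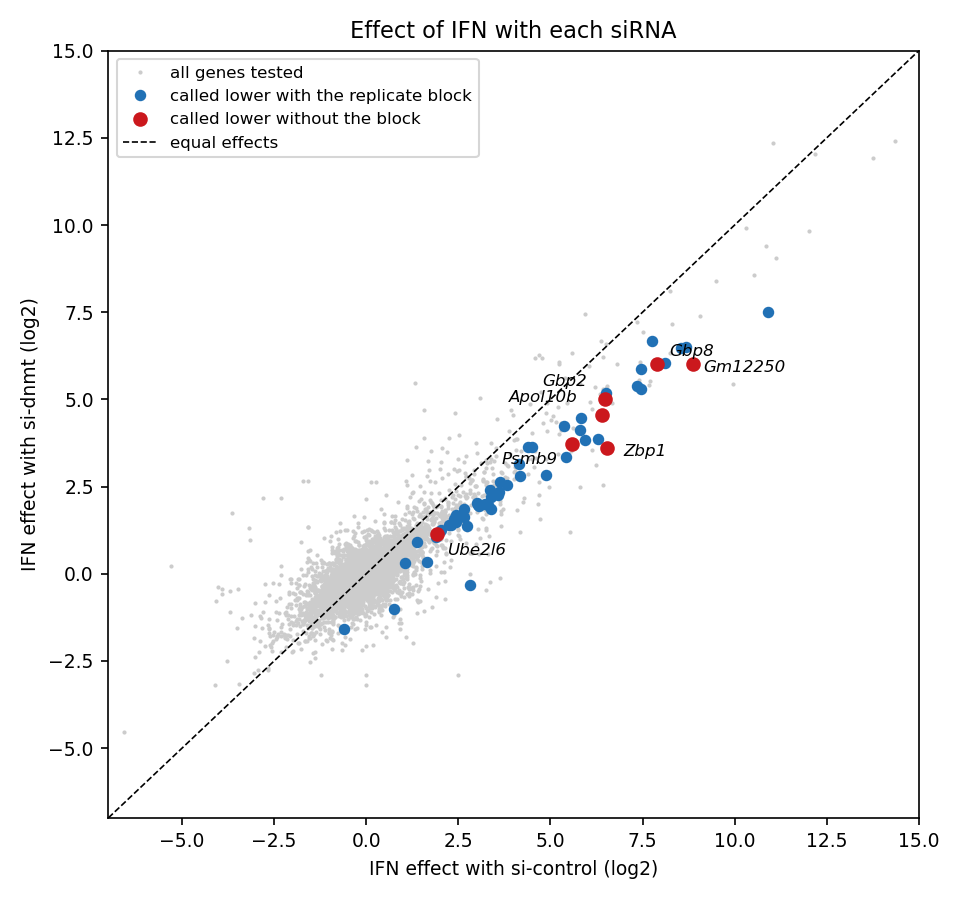
Effect of IFN (log2) in si-control cells on the x axis and in si-dnmt cells on the y axis, 1 point per gene tested (15250). Blue points are the 56 genes called lower with the replicate block and red points the 7 called without it; the coloured points lie below the dashed line of equal effects because that is how they were chosen.

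Upstream of these genes lie the components that carry the IFN signal. Of 17 genes of the receptor, JAK-STAT and feedback list, 0 were called (1 lower with the block) and 14 lay below 0, with a median of −0.11. Jak2, the kinase of the second receptor chain, had −0.55 ± 0.16 and was called neither way (adjusted p = 0.533, and 0.210 with the block).

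Of the interferon regulatory factors, 7 of 9 were tested, 0 were called and 6 lay below 0 (median −0.38; −0.51 within replicates 1 and 2, and −0.19 within replicates 3 and 4). Irf1, which is induced early and drives many later genes, rose from 35.8 ± 6.76 to 753 ± 150.4 CPM in si-control and from 50.9 ± 9.62 to 638 ± 74.1 CPM in si-dnmt (SD, n = 4). The interaction was −0.75 ± 0.20 (adjusted p = 0.379), and −0.74 ± 0.12 with the block, where it was called (adjusted p = 0.00101; 0.000423 to 1 over the alternatives). Irf7, which amplifies type I interferon output, had −0.75 ± 0.41 and an interval of −1.60 to 0.11. Within replicates 1 and 2 it was −1.46 and within replicates 3 and 4 it was 0.17.

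Without TNF, the GBPs and IRGs, the 2 families of IFN-induced GTPases, had the lowest medians of the lists with 10 or more genes tested. All 11 GBPs were tested and lay below 0, from −1.86 to −0.11 with a median of −1.10; 2 were called, and 7 with the block. Their median was −1.70 in replicates 1 and 2 alone and −0.51 in replicates 3 and 4 alone, where 10 lay below 0. Gbp5, which promotes inflammasome assembly, had 20.4, 21.5, 20.4 and 21.3 CPM with si-control and 83.1, 78.8, 31.2 and 31.8 CPM with si-dnmt. IFN brought it to 2137, 2192, 1393 and 1355 CPM and to 1639, 1751, 918 and 970.2 CPM. At rest the siRNAs did not overlap, and replicates 1 and 2 of si-dnmt lay above replicates 3 and 4; with IFN the siRNAs overlapped. The interaction was −1.85 ± 0.40 (adjusted p = 0.0713) and −1.74 ± 0.25 with the block, where it was called (adjusted p = 0.000148; 2.14e-09 to 0.476 over the alternatives).

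All 10 IRGs were tested and below 0 (median −1.33; 1 called, 5 with the block). The median was −1.88 in replicates 1 and 2 and −0.36 in replicates 3 and 4, where 8 lay below 0. Igtp, named after its values were seen, had a higher mean in si-dnmt at rest, but its libraries overlapped between the siRNAs, unlike those of Gm12250. It measured 30.8 ± 2.78 CPM with si-control and 39.5 ± 14.1 CPM with si-dnmt, and the test did not call the difference (adjusted p = 0.415). With IFN it measured 1908, 2208, 1418 and 1436 CPM with si-control and 1005, 1103, 653 and 721 CPM with si-dnmt, where no libraries overlapped. Under IFN its level fell by 1.00 on the log2 scale with si-dnmt (± 0.27, adjusted p = 0.00944). The Igtp interaction was −1.36 ± 0.39 (adjusted p = 0.511), called with the block at −1.27 ± 0.21 (adjusted p = 0.00123; 1.55e-06 to 1 over the alternatives). Gbp6, a GBP named in the same way, was also called lower under IFN (adjusted p = 0.00712).

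For MHC class I presentation, 17 of 18 genes lay below 0 (median −0.84); 0 were called without the block and 9 with it. The median was −1.08 in replicates 1 and 2 and −0.46 in replicates 3 and 4, with 17 below 0 in each. H2-K1, a classical class I heavy chain, was at 317, 232, 207 and 188 CPM with si-control and 717, 634, 321 and 354 CPM with si-dnmt, without overlap. With IFN it was at 2963, 3272, 1381 and 1719 CPM and at 2427, 2671, 1311 and 1518 CPM, with overlap. The set of replicates separated the libraries with IFN more than the siRNA did, and the interaction was −1.34 ± 0.48 (adjusted p = 1.00) and −1.24 ± 0.16 with the block (adjusted p = 3.91e-05; 4.23e-06 to 1 over the alternatives). H2-Q4 and Nlrc5, the transactivator of class I genes, had blocked values of −1.24 ± 0.15 and −1.18 ± 0.16. Tap1, the peptide transporter, had −1.27 ± 0.26 without the block (adjusted p = 0.0595) and −1.21 ± 0.20 with it. B2m, the class I light chain, named after its values were seen, had a blocked value of −0.80 ± 0.13. Heavy-chain genes of the H2 families can share reads.

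All 5 immunoproteasome genes lay below 0 (median −0.70; −0.97 within replicates 1 and 2, and −0.38 within replicates 3 and 4), with Psmb9 called in both fits. MHC class II presentation was a different case: 11 of 13 genes were tested, with a median of −0.56 (−0.51 in replicates 1 and 2 and −0.24 in replicates 3 and 4) and a range of −2.06 to 1.32, and 0 were called in either fit. Ciita, the class II master regulator, had 0 to 4 counts per library in si-control and 0 to 1 in si-dnmt before IFN, and its interaction was 1.32 ± 2.44.

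CXCR3 ligand chemokines, which recruit activated T cells, had the lowest list median (−1.95, 3 of 3 below 0) and 0 calls in either fit. It was −2.14 in replicates 1 and 2 and −0.31 in replicates 3 and 4. Cxcl9 had 0.0469, 0.159, 0.0439 and 0.0448 CPM in si-control, which is 1 to 3 counts per library, and 1.34, 2.35, 0.682 and 0.487 CPM in si-dnmt. With IFN it had 179.9, 167, 57.7 and 43.7 CPM with si-control and 687, 714, 212 and 190.2 CPM with si-dnmt. Within each replicate number the si-dnmt library was above the si-control library in both states, and no groups overlapped. In these sparse counts the interaction of −1.95 ± 1.40 had an interval of −4.83 to 0.94, while the gain in CPM with IFN was larger in si-dnmt (449.6 CPM) than in si-control (112 CPM). Cxcl10 was at 12.1 ± 4.83 CPM and 31.6 ± 6.81 CPM at rest and at 289 ± 141 and 366 ± 78.5 CPM with IFN, for an interaction of −1.04 ± 0.39 (adjusted p = 1.00, and 0.522 with the block).

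Of 42 antiviral effectors, 41 were tested and 40 lay below 0, with a median of −0.53; 1 was called, Zbp1, and 3 with the block. This median was −1.19 in replicates 1 and 2 alone and −0.05 in replicates 3 and 4 alone, where 21 lay below 0. Samhd1, which degrades nucleotides that viruses need, was at 37.7, 36.0, 65.3 and 74.4 CPM with si-control and 83.7, 86.4, 72.8 and 81.9 CPM with si-dnmt. With IFN it was at 1122, 1146, 826 and 769 CPM and at 693, 698, 409 and 472 CPM, so that the siRNAs overlapped at rest and did not with IFN. Its interaction was −1.37 ± 0.28 (adjusted p = 0.0595) and −1.35 ± 0.26 with the block, where it was called (adjusted p = 0.00695; 2.08e-09 to 0.476 over the alternatives). For complement, 10 of 12 tested genes lay below 0 (median −0.67; −0.93 within replicates 1 and 2, and −0.24 within replicates 3 and 4) and 0 were called, 1 with the block.

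Cd274, which encodes PD-L1, the inhibitory ligand of PD-1, was at 7.27, 8.32, 9.32 and 9.06 CPM with si-control and 23.6, 23.3, 21.5 and 22.3 CPM with si-dnmt. With IFN it was at 649, 661, 297 and 286 CPM and at 427, 490.2, 334 and 323 CPM, so that the siRNAs overlapped. Induction was 55.7-fold and 17.3-fold, with an interaction of −1.68 ± 0.34 (adjusted p = 0.0595), called with the block at −1.62 ± 0.23 (adjusted p = 0.000148; 4.65e-08 to 0.239 over the alternatives). The inhibitory ligand list as a whole had 5 of 9 tested genes below 0, a median of −0.02 and 0 calls, 2 with the block. Of the co-stimulatory ligands 9 of 12 were tested, with a median of 0.14 and 0 calls. Tnfsf4, which encodes OX40 ligand, had 0.14 ± 0.32, and Cd40 had 1.33 ± 0.48 (adjusted p = 1.00) on 4 to 30 counts per library in the si-control groups. Vcam1, an adhesion molecule for T cells, rose 2.40-fold with IFN in si-control and 2.04-fold in si-dnmt (interaction −0.23 ± 0.15, interval −0.55 to 0.09).

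The lists for other functions had medians nearer to that of all genes. These were 0.06 for NF-kB and TNF signalling, −0.02 for cell cycle and DNA replication, 0.11 for endothelial identity, 0.08 for leukocyte adhesion, −0.04 for sterol synthesis and 0.02 for the DNA methylation machinery. In these 6 lists 0 of the tested genes were called in either fit. Their signs were uneven in some cases: 15 of 17 sterol synthesis genes lay below 0. Above 0 lay 18 of 22 endothelial identity genes and 14 of 18 NF-kB and TNF genes. Below 0 lay 12 of 23 cell cycle, 4 of 9 adhesion and 5 of 14 DNA methylation genes. A count of signs alone therefore does not set the IFN-induced lists apart. The remaining lists were nucleic acid sensing (median −0.12), inflammasome and cell death (−0.07), other chemokines (−0.03), type I and III interferon ligands and receptors (0.04, 4 of 13 tested), reactive oxygen and nitric oxide enzymes (0.32) and methylation-silenced germline genes (1.35, 3 of 18 tested), with 0 called in either fit.

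**Figure D3:**
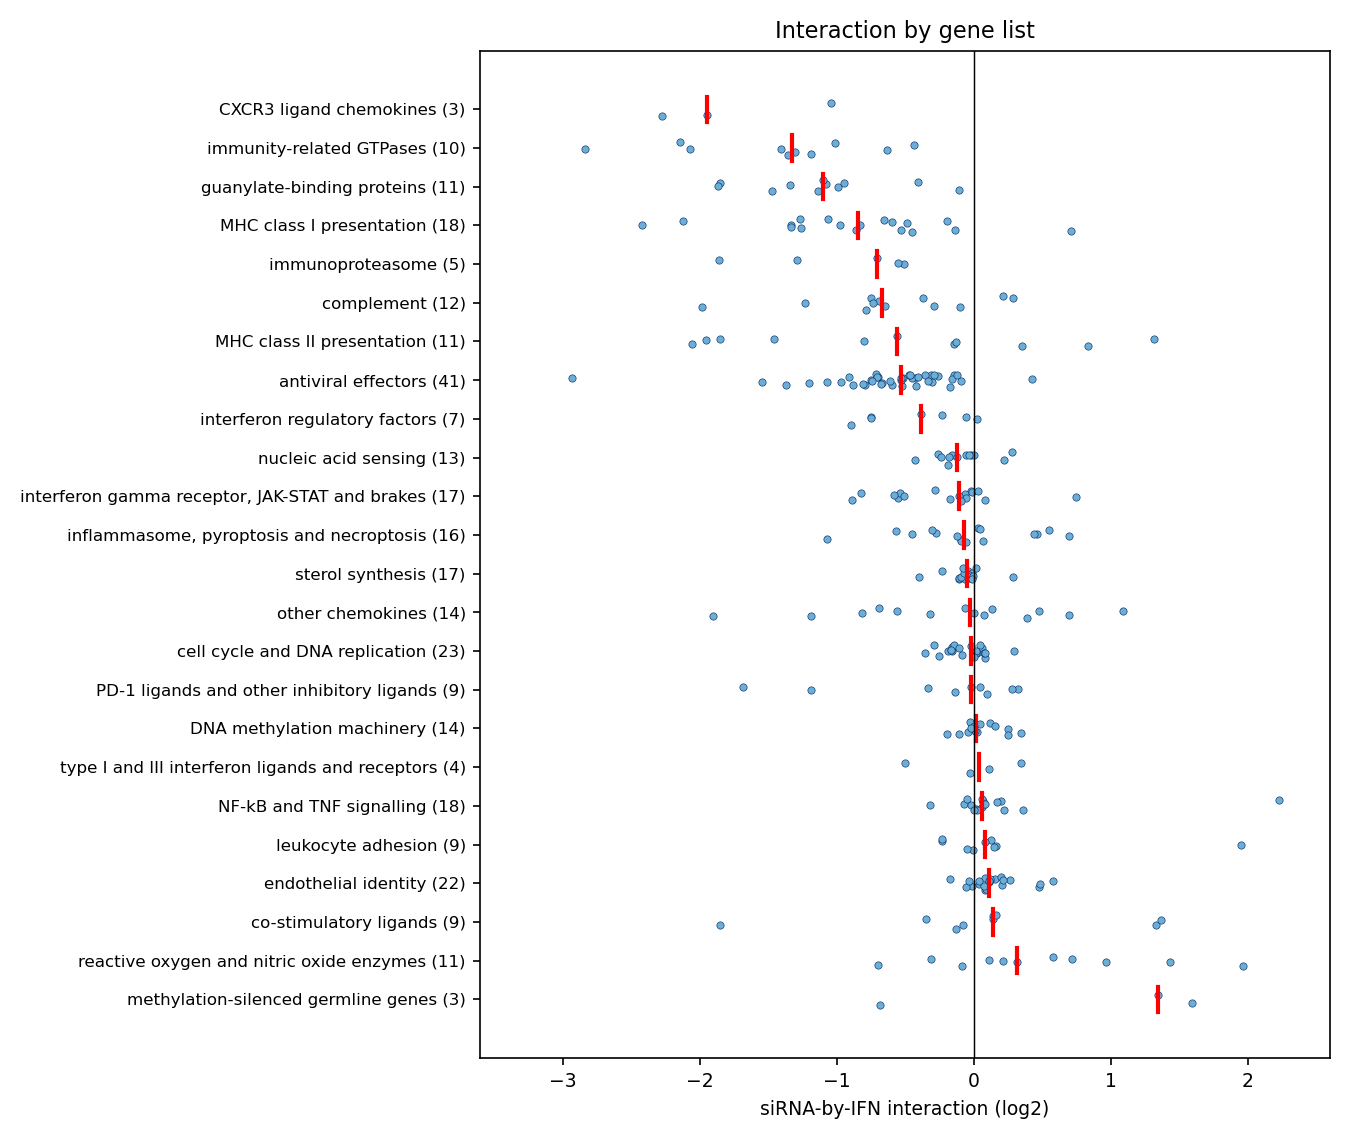
Interaction (log2, x axis) of each tested gene in 24 lists, 1 point per gene, with the list median as a red line and the number tested in parentheses. CXCR3 ligands, IRGs, GBPs and MHC class I presentation have medians from −1.95 to −0.84, and the endothelial identity list lies near 0 (0.11).

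A further list was drawn from libraries outside the comparison. IFN added to TNF raised 779 genes (called, mean log2 of at least 1 over both siRNAs). In the interaction without TNF, 512 of them lay below 0 (65.7%, against 48.5% of all genes) with a median of −0.23. Of the 779, 6 were called lower, and 48 with the block. The filter on low counts used all 32 libraries, so some of the 779 had almost no counts in the 16 libraries without TNF. Among them, Tnf and H2-Oa reached at most 4 counts in any of the 16, and Cybb and Gja4 at most 2. The sign of the interaction says little for such genes, and their share of the 779 was not counted. The 429 genes that IFN lowered there had a median of 0.13, with 166 below 0.

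The replicate sets were also fitted apart, and the difference between them was not tested. Replicates 1 and 2 alone called 232 genes lower (1.51%) and 44 higher (0.286%), and replicates 3 and 4 alone 102 lower (0.672%) and 52 higher (0.343%). Called lower in both were 51 genes, 22% of the first list and 50% of the second, and 1 gene was called in opposite directions. Among the 56 genes the median was −1.61 in replicates 1 and 2 and −0.89 in replicates 3 and 4, and 50 of 56 were larger in size in the former. For Zbp1 the values by replicate number were −3.17, −3.84, −1.31 and −2.51, and for Gm12250 −4.47, −4.13, −1.75 and −1.89. The sign was the same in all 4 numbers for 54 of the 56 genes, with C4b and F830016B08Rik as exceptions. Over all genes tested it was the same for 2638 of 15250. The block fit chose the 56 on these same libraries and favours values alike across the numbers, so their agreement is no separate evidence.

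**Figure D4:**
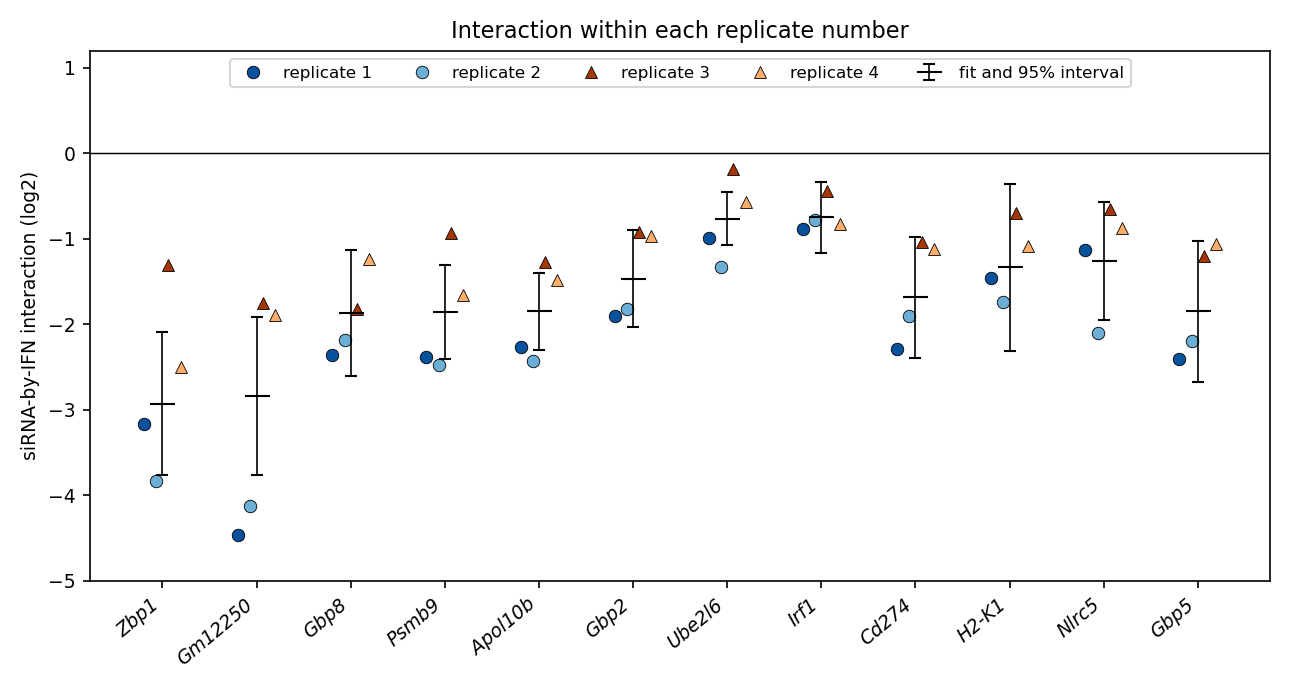
Interaction (log2, y axis) computed within each replicate number from log2 CPM for 12 genes, with circles for replicates 1 and 2 and triangles for replicates 3 and 4. The black bar is the edgeR estimate with its 95% interval. All points lie below 0, and for Zbp1 they range from −3.84 to −1.31. All 12 genes were called lower with the replicate block, a choice that favours points of the same sign.

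The same interaction was then measured with TNF present, in the other 16 libraries. It called 4 genes lower (0.0262%), Batf2, Gbp8, Mxi1 and Gys1, and 1 higher (0.00656%), Tma16, and with the block 31 lower (0.203%) and 10 higher (0.0656%). Of the 56 genes, 51 lay below 0 with TNF, against 51.1% of all genes tested. So did 544 of the 779 genes that IFN raised with TNF, a list drawn from these same libraries that holds 48 of the 56. The median of the 56 was −0.52 against −1.32 without TNF. Among them 2, Gbp8 and Batf2, were called, and 5 with the block. The 56 were chosen on the libraries without TNF, so their own median there is larger by selection, and the comparison of the 2 medians is a description. List medians with TNF were −0.32 for GBPs (9 of 11 below 0), −0.24 for IRGs (8 of 10) and −0.08 for antiviral effectors (26 of 41). They were −0.54 for MHC class I (16 of 18), −0.69 for CXCR3 ligands (3 of 3) and −2.32 for MHC class II (11 of 11). Class II rested partly on sparse counts, such as H2-DMb1 at 0 to 6 per library in si-control + TNF. The three-way term, which tests the difference itself, called 0 genes (edgeR) and 2 with the block (0.0131%), Zbp1 and Tma16. Without the block 284 genes had an unadjusted p under 0.05, again fewer than a share of 0.05 of all genes tested.

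The level of Zbp1 before IFN was higher with TNF. It was at 73.8, 89.6, 71.4 and 68.8 CPM with si-control + TNF and 128, 146, 92.6 and 90.2 CPM with si-dnmt + TNF. With TNF + IFN it was at 458, 428, 365 and 349 CPM and at 439, 466, 385 and 381 CPM. The interaction with TNF was −0.53 ± 0.38, and the three-way term 2.40 ± 0.55 (adjusted p = 0.852, and 0.0326 with the block). Gbp8 was at 296 ± 32.5 CPM with si-control + TNF + IFN and 193 ± 60.3 CPM with si-dnmt + TNF + IFN, with an interaction of −1.59 ± 0.30 (adjusted p = 0.0304).

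Batf2, an AP-1 family factor induced by IFN, had the same estimate in both settings, −2.07 ± 0.47 without TNF (adjusted p = 0.0984, called with the block) and −2.07 ± 0.33 with TNF (adjusted p = 0.00549). It lay at 0.219 ± 0.110 CPM with si-control and 0.973 ± 0.227 CPM with si-dnmt, and with IFN at 85.9 ± 22.1 and 86.5 ± 16.7 CPM. Tma16, named after its values were seen, like Batf2, was the gene called higher with TNF. It was at 36.9 ± 4.00 CPM in si-control + TNF + IFN against 100.5 ± 22.1 CPM in si-dnmt + TNF + IFN, an interaction of 1.57 ± 0.21 (adjusted p = 0.000858). Without TNF it was −0.04 ± 0.22, and the three-way term was 1.61 ± 0.31 (adjusted p = 0.109, and 0.0379 with the block).

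**Figure D5:**
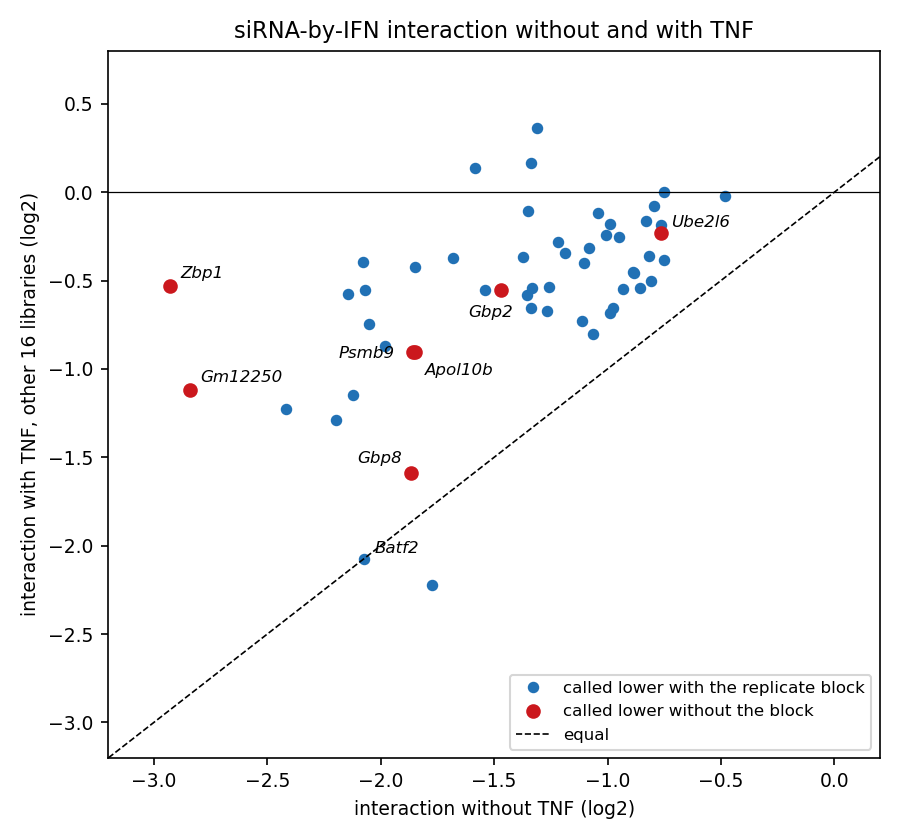
Interaction (log2) without TNF on the x axis and with TNF, from the other 16 libraries, on the y axis, for the 56 genes called lower with the block; the 7 called without it are red. The dashed line marks equal values, and 51 of the 56 points lie below 0 on the y axis; Batf2, at −2.07 on both axes, lies on the line.

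The block called 3 genes higher. With si-dnmt, 0 of them lay above si-control at rest and all 3 lay above it with IFN, a pattern that a positive interaction selects. Their responses to IFN differed. Dapk2, a calcium-regulated death kinase, was lowered by IFN from 7.6 ± 4.74 to 1.13 ± 0.67 CPM in si-control, and from 2.36 ± 1.5 to 1.34 ± 0.67 CPM in si-dnmt (blocked interaction 1.97 ± 0.35, adjusted p = 0.00289; 0.00134 to 1 over the alternatives). 1600014C10Rik rose 2.07-fold with IFN in si-control and 3.27-fold in si-dnmt (blocked 0.67 ± 0.13). Nckap1l had 0 counts in all 4 si-control + IFN libraries and 3 to 6 in those of si-dnmt + IFN, and no fold is given.

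Totals were 17908206 to 33500030 counts per library, and TMM factors 0.918 to 1.09. Endothelial markers summed to 4874 to 8561 CPM in the 16 libraries, with all 11 tested. Leukocyte markers (3 of 11 tested) summed to 191 to 227 CPM in si-control, 144 to 188 with IFN, 140.3 to 187 in si-dnmt and 133 to 147 in si-dnmt + IFN, mostly Cd68 at 72.4 to 165 CPM and Lyz2 at 12.7 to 133 CPM. Ptprc lay at 0 to 0.134 CPM, and Cd3e, Adgre1 and Ncr1 were at 0 in all 16 libraries. Fibroblast markers (4 of 8 tested, mostly Col3a1) summed to 43.4 to 80.6 CPM in si-control, 22.6 to 38.2 with IFN, 17.6 to 34.6 in si-dnmt and 10.8 to 17.8 in si-dnmt + IFN. Epithelial markers (2 of 9 tested) summed to 7.54 to 25.9 CPM over all 16 libraries. Summed pericyte and smooth muscle markers (5 of 8 tested, mostly Acta2) were 8.22 to 28.3 CPM in si-control, 21.4 to 70.8 with IFN, 40.6 to 186 in si-dnmt and 85.2 to 233 in si-dnmt + IFN, and among them Rgs5 was at 0 in 12 and Des in 13 of the 16 libraries. The mitochondrial share was 4.43% to 5.77% in si-control and 2.40% to 3.24% in si-dnmt + IFN. None of the tested marker genes was called in the interaction, and the part of these differences in the results was not tested. In bulk RNA, fewer cells of a type and less RNA per cell cannot be told apart.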

How the data were processed

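RNA-seq was made from the Veravec EC line; the labels give the siRNA, the cytokine and replicate numbers 1 to 4. The authors deposited whole counts per gene, unnormalized, as 1 table per library (54532 identifiers) and 1 table merged by symbol (54429), which equalled the sums of the former. Their notes name cutadapt 4.9, FastQC 0.12.1, MultiQC 1.27.1, featureCounts and DESeq2; aligner, build, annotation and strand setting were not given in the sources used here; overlapping genes and paralogs may share reads. All 32 libraries were fitted as 8 group means in edgeR 4.0.16 (R 4.3.3): filterByExpr with a minimum count of 10, TMM factors, the quasi-likelihood F test (two-sided) and Benjamini-Hochberg adjustment over all genes tested, called at 0.05. P-values measure the spread between libraries of 1 cell line. No 2 libraries agreed within sampling noise (smallest chi-square per degree of freedom 3.86 over 496 pairs). The fit was also run on simulated counts with the same spread for all genes, no replicate sets and no changes planted in low-count genes. That run therefore does not cover the replicate structure or the sparse genes of these data. Per-number values used log2 CPM with a prior count of 2.

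Same-numbered libraries of the 4 groups correlated above 0.1 in all 24 pairs (0.38 to 0.62), so the block is printed where it changes a call. Libraries of the other number in the same set correlated nearly as closely (0.35 to 0.56). The members and lists were chosen with earlier results of these data known. Named were a fixed list of 12 genes, genes called (at least 1 CPM), up to 6 each way by p with the block, and the 2 smallest p of each list; Igtp, Gbp6, B2m, Batf2, Tma16, Nckap1l and the exceptions to a count were named after their values were seen. Alternatives were other scaling factors, filters, tools (DESeq2, limma-voom), sample sets, the block, replicate sets, leaving out each library, tables by identifier, a fold minimum and a prior count of 0.125. DESeq2 and limma-voom for the TNF and three-way contrasts were added after seeing the data. Some named items are not reported here.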

Additional observations from a re-analysis of the deposited data

Results flagged for a closer look

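The 7 genes called in the interaction differ between the siRNAs in their response to IFN by the test of the difference itself: Zbp1 (log2 −2.93), Gm12250 (−2.84), Gbp8 (−1.86), Psmb9 (−1.86), Apol10b (−1.85), Gbp2 (−1.47) and Ube2l6 (−0.76).

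In 11 of 304 groups of 4 libraries examined for the named genes (3.62%), 1 library stood far from the other 3 by Dixon's criterion; chance flags about 1 in 20. In si-control these were Cxcl9 at 0.159 CPM, Cx3cl1 at 6.94 CPM, Cxcl3 at 4.24 CPM and H2-DMa at 0.0439 CPM. In si-control + IFN they were Duox2 at 0.104 CPM, Piwil2 at 0.312 CPM and Gja5 at 0.709 CPM. In si-dnmt it was Icosl at 0.478 CPM, and in si-dnmt + IFN Tnfsf4 at 10.1 CPM, Duox2 at 0.252 CPM and Ccnb2 at 38.3 CPM.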

How the results depend on the processing

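The count of genes called lower was 7. It was 14 with DESeq2 size factors, 16 with upper-quartile factors, 34 with the DESeq2 Wald test, 3 with limma-voom, 12 with no low-count filter, 4 with only the 16 libraries, 56 with the replicate block, 63 with the replicate set as a covariate, 232 in replicates 1 and 2 only, 102 in replicates 3 and 4 only, and 4 to 15 when 1 library was left out. Genes called higher were 0, but 3 with the replicate block, 4 with the replicate set, 44 in replicates 1 and 2 and 52 in replicates 3 and 4; leaving out libraries kept 0. With TNF, 4 lower and 1 higher became 31 and 10 with the replicate block, 14 and 7 with DESeq2, 2 and 2 with limma-voom, and 0 lower with only the 16 libraries. The three-way term called 0, and 2 higher with the replicate block or with DESeq2. The causes were not tested. Signs reversed for 10 gene values in 3 settings other than left-out libraries: in replicates 1 and 2, Dnmt1 (0.0328), Icosl (2.71) and Rel (0.12); in replicates 3 and 4, Irf7 (0.17), Ciita (−0.24), Tnfsf4 (−0.38), Ifih1 (7.3e-05), Cxcl11 (0.0496) and Tma16 (0.0331); and with limma-voom Icosl (0.93). With libraries left out, Dnmt1 ranged from −0.39 to 0.00496, Icosl from −0.83 to 1.52, Tnfsf4 from −0.0512 to 0.38 and Tma16 from −0.15 to 0.0805. Resting counts near 0 limit Cxcl9 and Ciita, and low counts limit Icosl.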
